A study of Mus musculus with 20 samples.

Results

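The collagen genes were examined in bulk RNA-Sequencing data of colorectal liver metastasis (CRLM) in C57BL/6 mice, in which 1000000 Mc38 cells, a mouse colon adenocarcinoma line, reached the liver by the splenic and portal route. A gene was taken as a collagen gene when it was annotated as protein coding and its name had the form Col, a type number, a and a chain number, which gave 44 of the 54532 genes in the tables. The tissue groups were normal liver of mice given saline (con, day 0, 2 libraries), liver free of tumor from a CRLM-bearing mouse (L-con, day 12, 1 library), low-content metastasis (Lt, day 9, 2 libraries), medium-content metastases Mt3 (day 9), Mt2 (day 11) and Mt1 (day 11) with 2 libraries each, and high-content metastasis (Ht, day 12, 3 libraries). Cells held back by F4/80 or by CD11b microbeads from Mt2 metastases (F4/80+TAM and CD11b+TAM, day 11, 3 libraries each) served as a check on which members were carried by macrophages. All mice were wild type; the sample labels give them as male and the Methods as female. All metastases came from the same cell line, and con mice carried none. Lt and Mt3 share day 9 and medium-content metastases were taken on days 9 and 11, so content and day are partly separated there, whereas con and Ht differ in both, which cannot be told apart in that contrast.

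Collagens are the main structural proteins of the extracellular matrix, each built from 3 polypeptide chains wound into a triple helix. Fibrillar collagens (types I, III, V and others) form the cables of connective tissue, type IV forms the sheet of basement membranes, and type VI forms beaded filaments around cells. FACIT collagens (fibril-associated, such as types XII and XIV) decorate fibrils, while transmembrane collagens such as types XIII and XXV stay in the cell membrane. Types XV and XVIII, the multiplexins, are proteoglycans of the basement membrane zone, and type XVIII is the source of endostatin. In the liver, stellate cells and fibroblasts are the best known makers of fibrillar collagen, and hepatocytes are known to express Col18a1.

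The tissue libraries held 16032085 to 18246623 counts and the sorted libraries 17785496 to 20548370. Ht_1 and Ht_3 are described in the Methods as made identical, so their counts were summed to Ht replicate 1 and Ht had 2 samples. Their counts nevertheless differed by more than sampling noise (the chi-square statistic across genes, divided by its degrees of freedom, was 27.6, beside 26.7 between Ht_1 and Ht_2 and 12.1 between Ht_2 and Ht_3), and collagen made up 1.93%, 1.94% and 2.53% of the counts of Ht_1, Ht_2 and Ht_3. With Ht as 3 libraries, 12 members were called from Mt to Ht, beside 2.65% of all genes higher and 15.2% lower. With Ht_1 and Ht_2 alone 8 were called, beside 1.29% and 13.1%. The summed sample gave 9, beside 1.5% and 13.4%. Mt2 replicate 2 and Mt1 replicate 2 stood apart from their partners: the summed level of 9 hepatocyte markers was 11600 and 10940 FPKM in these samples against 46340 and 41070 in replicate 1. Among the sorted cells, CD11b+TAM replicate 3 had the lowest collagen level. Reads from fewer cells of a type and from less RNA per cell cannot be told apart in bulk tissue. Replicates were separate livers in the tissue groups according to the Methods, whereas nothing states whether the 3 libraries of a sorted population came from separate animals, so their p-values may measure technical spread.

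The upstream sequences of 3 members are shown because these genes held the largest collagen share in Ht (Col3a1), had the largest fold change of the members with reads in con (Col6a2) and held the largest share in con (Col18a1). They come from RefSeq on GRCm38.p6, of which the promoter table used here matched 35 of the 44 members, and run 5′ to 3′ on the gene's strand up to the annotated start. Capitals mark the CCAAT box, the GC box GGGCGG and the TATA word TATAAA on either strand.
Col3a1, chr1:45311288-45311537, plus strand: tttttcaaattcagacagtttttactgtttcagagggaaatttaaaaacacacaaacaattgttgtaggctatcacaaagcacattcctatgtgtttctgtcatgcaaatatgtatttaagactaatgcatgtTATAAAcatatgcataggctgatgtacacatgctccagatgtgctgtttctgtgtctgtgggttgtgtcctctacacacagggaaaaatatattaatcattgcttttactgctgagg
Col6a2, chr10:76623631-76623880, minus strand: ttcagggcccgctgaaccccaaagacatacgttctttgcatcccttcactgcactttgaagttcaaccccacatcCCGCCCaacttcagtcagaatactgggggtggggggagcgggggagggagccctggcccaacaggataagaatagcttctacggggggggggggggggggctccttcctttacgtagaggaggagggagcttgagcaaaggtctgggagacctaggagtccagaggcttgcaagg
Col18a1, chr10:77166549-77166780, minus strand: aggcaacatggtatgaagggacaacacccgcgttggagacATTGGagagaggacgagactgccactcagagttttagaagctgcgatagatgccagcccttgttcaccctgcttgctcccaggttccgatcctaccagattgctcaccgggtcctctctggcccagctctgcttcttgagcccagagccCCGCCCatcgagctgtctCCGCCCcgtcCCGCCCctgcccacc
The Col18a1 stretch holds 4 of these words, 3 of them GGGCGG on the other strand, and the Col3a1 and Col6a2 stretches 1 each. GGGCGG stood in 21 of the 35 member promoters and in 32.7% of 32851 promoters in the RefSeq table, CCAAT in 12 of 35 and 33.8%, and TATAAA in 5 of 35 and 12.4%. The members count 1 promoter per gene, the entry nearest its annotated start, whereas the percentages run over all RefSeq entries. The shares are thus not counted alike, and no difference between them was tested. These are matches of letters, not sites.

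The total collagen level and the mix of chains were described first. Levels are given as FPKM (counts divided by the annotated gene length in kilobases and by the effective library size after TMM scaling). Shares and ratios between genes therefore depend on those lengths as well as on the counts. Col6a1 and Col6a2, at 4380 and 8326 bases, had 103921 and 95975 counts in Ht replicate 1. Comparisons of 1 gene between samples do not depend on the length. Summed over the 44 members, collagen reached 268 and 276 FPKM in con and 307 in L-con, and in the metastases 464 and 807 (Lt), 688 and 682 (Mt3), 982 and 1477 (Mt2), 1046 and 1607 (Mt1) and 1927 and 1717 (Ht). Ht was 6.69-fold above con by the group means (1822 ± 149 against 272 ± 5.79, SD, n = 2 each), and every metastasis sample lay above both con samples. With total-count scaling the fold was 15.1. As a share of all counts, collagen reads made up 0.127% and 0.134% in con and 1.93% to 2.53% in the 3 Ht libraries. In each of Lt, Mt2 and Mt1, replicate 2 held more collagen and a lower sum of hepatocyte markers than replicate 1.

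In con, collagen was mostly Col18a1. Its share of summed collagen FPKM was 74.8% in con replicate 1, where Col14a1 (6.39%) and Col4a1 (5.67%) came next. In Ht replicate 1 the order was Col3a1 (27.6%), Col6a1 (24.1%), Col6a2 (11.7%), Col1a1 (7.74%) and Col4a1 (7.19%). By class, the fibrillar share was 6.67% and 5.25% in con and 44.8% and 44.2% in Ht. The beaded filament share was 1.86% and 1.30% in con and 38.1% and 38.0% in Ht, and the multiplexin share was 74.9% and 81.5% in con but 2.72% and 3.01% in Ht. The basement membrane share differed least among these classes, with 9.21% and 6.59% in con against 13.2% and 13.6% in Ht. L-con had shares between those of con and Lt, with 15.99% fibrillar, 8.56% beaded filament and 59.7% multiplexin.

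**Figure D1:**
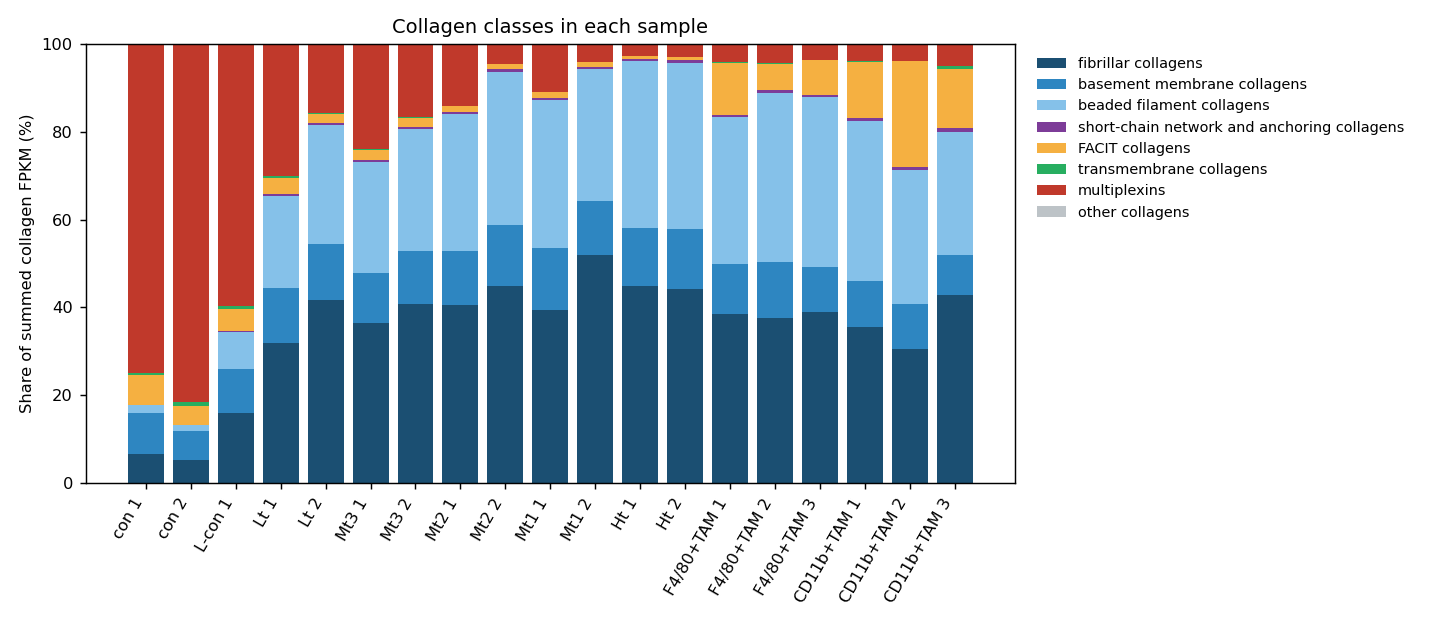
Share of summed collagen FPKM (vertical axis, %) taken by each collagen class in each sample (one bar per sample, horizontal axis). The multiplexin share, 74.9% and 81.5% in con, is 2.72% and 3.01% in Ht, where fibrillar and beaded filament collagens fill most of the bar.

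Whether collagen expression had already changed in small metastases was asked by comparing Lt with con. Of the 37 members with enough counts to be tested, 19 rose and 0 fell, among them 5 fibrillar and 5 beaded filament chains. The remaining 18 were not called. Over all 17187 genes tested, 12.4% were called higher and 0.256% lower. Without con replicate 2 or Lt replicate 2, 11 members were called, beside 4.20% or 5.33% of all genes higher. The members' median log2 fold change was 1.98, or 1.83 with genes at 0 in con set to their lower bound, beside 0.10 over all genes. A gene was called when its adjusted p was 0.05 or less (edgeR's quasi-likelihood test, Benjamini-Hochberg) and its level differed by 1 or more on the log2 scale. The members passed the count filter in part through the groups where they were high, so these counts describe the members and do not test them as a set. Over the same contrast 6 of 13 stellate cell and fibroblast markers were called higher, among them Acta2 (2.78 ± 0.67) and Pdgfra (2.22 ± 0.38), as were 5 of 9 macrophage and monocyte markers, and their part in the collagen values was not tested.

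Of the fibrillar collagens, 5 of 10 tested rose in Lt. Col3a1, the chain of type III collagen, measured 5.96 and 3.43 FPKM in con and 24.9 in L-con, and in the metastases 88.6 and 209 (Lt), 149 and 181 (Mt3), 236 and 395 (Mt2), 242 and 447 (Mt1) and 531 and 464 (Ht). All samples with tumor were above con, and the log2 fold change from con to Lt was 4.99 ± 0.63 (SE, adjusted p = 0.00194, edgeR). Col1a1, the α1 chain of type I collagen, measured 2.65 and 1.07 FPKM in con and 7.83 in L-con, and in the metastases 22.1 and 52.4 (Lt), 46.7 and 40.1 (Mt3), 76.6 and 113 (Mt2), 76.7 and 199 (Mt1) and 149 and 137 (Ht). It rose by a log2 fold change of 4.33 ± 0.66 (adjusted p = 0.00335, edgeR), and its highest value was in Mt1 replicate 2, not in Ht.
Col1a2, the α2 chain that joins Col1a1 in type I collagen, measured 2.12 and 1.31 FPKM in con and 3.14 in L-con, and in the metastases 7.96 and 15.7 (Lt), 8.66 and 11.6 (Mt3), 13.1 and 27.02 (Mt2), 12.6 and 57.4 (Mt1) and 20.9 and 16.8 (Ht). Its log2 fold change to Lt was 2.79 ± 0.69 (adjusted p = 0.0265, edgeR). The call was lost without Lt replicate 2 or without either con sample, with the highest adjusted p at 0.18 over all alternatives. Col5a1, a chain of type V collagen that helps to start fibrils, measured 1.80 and 1.25 FPKM in con and 5.13 in L-con, and in the metastases 14.4 and 34.8 (Lt), 27.3 and 26.8 (Mt3), 47.0 and 79.5 (Mt2), 52.0 and 81.4 (Mt1) and 106 and 92.9 (Ht). Its partner Col5a2, which lies 24614 bases from Col3a1 on chromosome 1, measured 0.850 and 0.306 FPKM in con and 2.24 in L-con, and in the metastases 6.75 and 13.4 (Lt), 9.06 and 11.0 (Mt3), 13.7 and 28.7 (Mt2), 16.1 and 31.5 (Mt1) and 35.2 and 30.6 (Ht). Both rose in Lt, by 4.02 ± 0.50 and 4.13 ± 0.62 on the log2 scale.

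The beaded filament collagens had 5 of 6 tested members called higher in Lt. Col6a1 measured 2.72 and 2.13 FPKM in con and 14.5 in L-con, and in the metastases 57.4 and 134 (Lt), 105 and 115 (Mt3), 185 and 328 (Mt2), 219 and 303 (Mt1) and 465 and 417 (Ht). Col6a2, 85161 bases away on chromosome 10, measured 0.781 and 0.694 FPKM in con and 7.79 in L-con, and in the metastases 28.2 and 65.8 (Lt), 51.8 and 59.2 (Mt3), 94.6 and 155 (Mt2), 103 and 142 (Mt1) and 226 and 197 (Ht). These chains of type VI collagen rose by 5.31 ± 0.52 and 6.00 ± 0.52 on the log2 scale from con to Lt (adjusted p = 0.00131 and 0.00122, edgeR). Col6a3, the large remaining chain of the classic type VI assembly, measured 1.29 and 0.685 FPKM in con and 3.59 in L-con, and in the metastases 10.9 and 17.7 (Lt), 18.1 and 14.4 (Mt3), 24.2 and 31.8 (Mt2), 29.7 and 34.5 (Mt1) and 42.2 and 37.0 (Ht). It rose by 3.86 ± 0.38 (adjusted p = 0.00132, edgeR). Of the chains that can stand in its place, Col6a5 rose by 3.72 ± 0.53 and Col6a6 by 1.89 ± 0.54 (adjusted p = 0.0482, edgeR), and the second call was lost when any single con or Lt sample was left out, in the fit of con and Lt alone and in the fit blocked on exchanged replicate numbers.

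In the basement membrane class, 3 of 6 tested members rose in Lt. Col4a1 measured 15.2 and 9.92 FPKM in con and 17.6 in L-con, and in the metastases 34.1 and 57.3 (Lt), 42.2 and 47.4 (Mt3), 68.2 and 114 (Mt2), 82.2 and 111 (Mt1) and 138 and 126 (Ht). Col4a2, which is encoded head to head with Col4a1 on chromosome 8, measured 8.66 and 7.91 FPKM in con and 11.6 in L-con, and in the metastases 20.7 and 38.6 (Lt), 29.9 and 29.4 (Mt3), 45.1 and 76.8 (Mt2), 53.5 and 73.7 (Mt1) and 88.9 and 81.3 (Ht). Their rise to Lt was 1.87 ± 0.38 and 1.84 ± 0.36 on the log2 scale (adjusted p = 0.0113 and 0.00937, edgeR). Both calls were lost without con replicate 2 or without Lt replicate 2, and that of Col4a2 also without con replicate 1 (highest adjusted p = 0.107 and 0.0881, edgeR). Col4a5, a chain found in basement membranes of kidney and smooth muscle, measured 0.668 and 0.257 FPKM in con and 1.09 in L-con, and in the metastases 3.11 and 6.50 (Lt), 5.94 and 5.29 (Mt3), 8.96 and 14.7 (Mt2), 11.9 and 13.6 (Mt1) and 26.2 and 26.05 (Ht). It rose by 3.39 ± 0.48 from con to Lt (adjusted p = 0.00268, edgeR).

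The other members called higher in Lt were of low level. Col8a1, a network chain of vessel walls, measured 0.164 and 0.0991 FPKM in con and 0.386 in L-con, and in the metastases 1.36 and 2.76 (Lt), 2.40 and 2.29 (Mt3), 3.54 and 6.68 (Mt2), 3.87 and 6.15 (Mt1) and 6.70 and 6.96 (Ht), and rose by 3.98 ± 0.51 from con to Lt (adjusted p = 0.00198, edgeR). Col15a1 measured 0.332 and 0.937 FPKM in con and 1.93 in L-con, and in the metastases 2.62 and 2.40 (Lt), 2.51 and 1.62 (Mt3), 2.13 and 3.19 (Mt2), 1.84 and 5.44 (Mt1) and 3.01 and 2.48 (Ht). Its call in Lt sat at the threshold (1.98 ± 0.57, adjusted p = 0.0490, edgeR) and was lost under 7 of 12 alternatives. The con samples differed from each other in Col15a1 by more than the Lt samples did.
Col28a1 had 0 counts in both con samples and 2 in L-con, and in the metastases 11 and 37 (Lt), 21 and 11 (Mt3), 16 and 38 (Mt2), 52 and 36 (Mt1) and 136 and 65 (Ht, where replicate 1 sums 2 libraries). Col9a3 had 0 in con and L-con, and in the metastases 4 and 17 (Lt), 6 and 8 (Mt3), 14 and 26 (Mt2), 5 and 18 (Mt1) and 80 and 22 (Ht). With both con samples at 0, they were, against a floor of 3 counts per library, at least 6.17-fold and at least 2.69-fold higher in Lt. The fitted calls of both were lost without con replicate 2 or Lt replicate 2, and that of Col9a3 also without con replicate 1 (highest adjusted p = 0.0711 and 0.171, edgeR). Col7a1, the anchoring fibril collagen, had 5 counts over both con samples and 217 over both Lt samples, a ratio of 34.4 (95% exact interval of the counts 14.5 to 107). Its level was 0.0267 and 0.0168 FPKM in con and 0.0840 in L-con, and in the metastases 0.443 and 1.012 (Lt), 0.627 and 0.617 (Mt3), 1.12 and 2.64 (Mt2), 1.34 and 2.24 (Mt1) and 3.23 and 2.52 (Ht). Floors and intervals cover counting error only. Col12a1 measured 0.114 and 0.164 FPKM in con and 0.312 in L-con, and in the metastases 0.480 and 1.06 (Lt), 0.668 and 0.821 (Mt3), 1.23 and 2.76 (Mt2), 1.26 and 5.38 (Mt1) and 3.59 and 3.20 (Ht). It was higher in both Lt samples than in con but was not called there (2.47 ± 0.75, adjusted p = 0.0583, edgeR). It was called, with log2 fold changes between 2.34 and 2.91, by DESeq2 (adjusted p = 0.00531), without a filter, with the replicate number as a block (edgeR, adjusted p = 0.0190) or with exchanged numbers, in the fit of con and Lt alone and without Lt replicate 1.

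**Figure D2:**
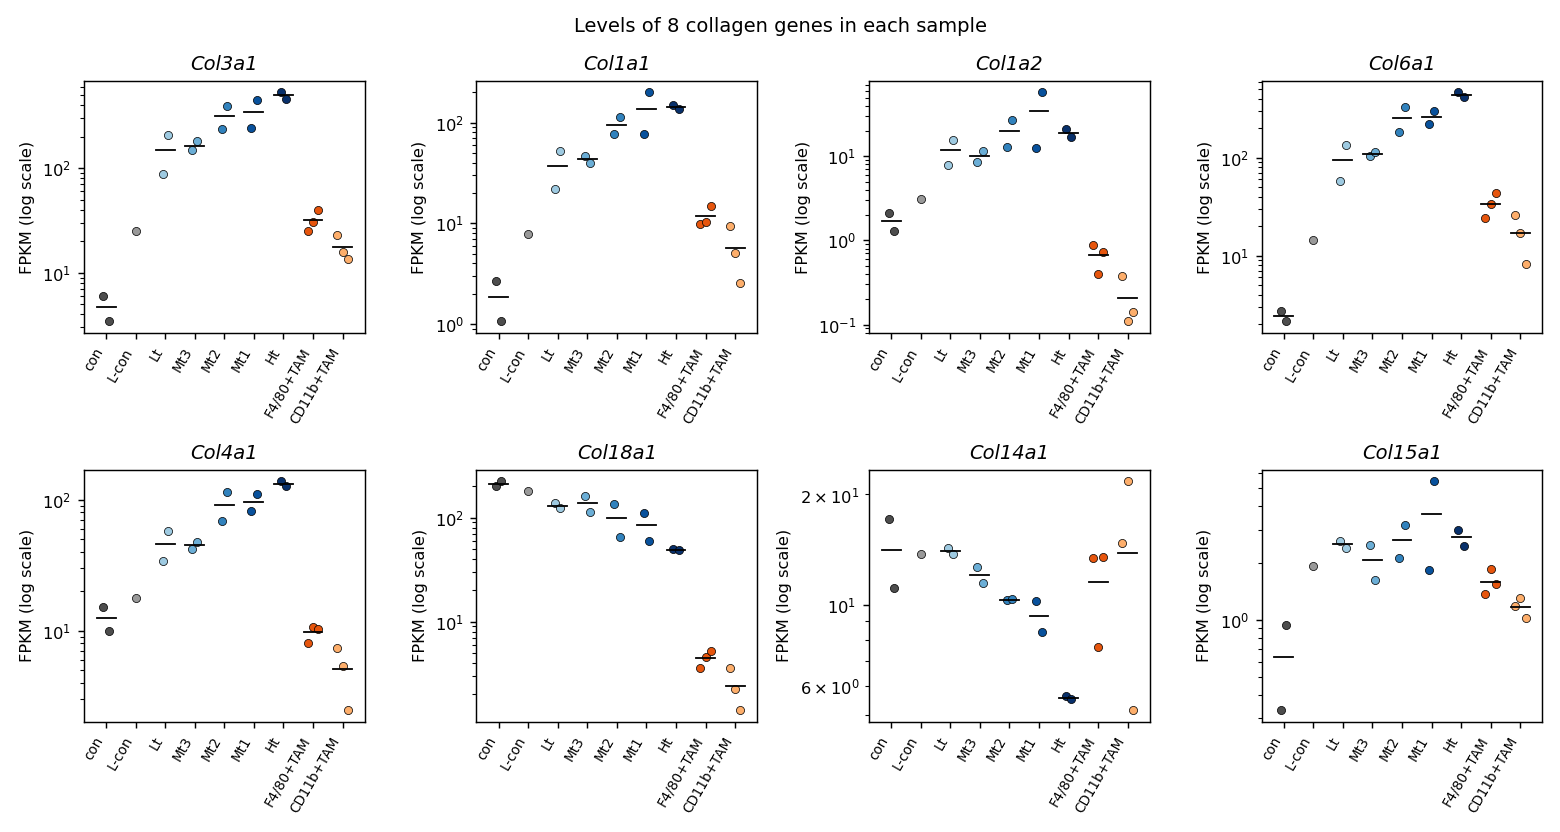
Level (FPKM, log scale, vertical axes with their own ranges) of 8 collagen genes in each sample by group (horizontal axis), one point per sample and a line at the group mean. Col3a1 is at 5.96 and 3.43 FPKM in con against 531 and 464 in Ht, Col18a1 at 200.5 and 224 against 49.5 and 49.2, and Col14a1 at 17.1 and 11.1 against 5.63 and 5.52.

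The single L-con library was compared with con without a test. Of 37 members, 11 were more than 2-fold above the higher con sample, beside 6.09% of all genes, and 3 were more than 2-fold below the lower con sample, beside 1.06%. Col6a2 was 9.98-fold, Col6a1 5.34-fold and Col3a1 4.18-fold above the higher con sample, and Col1a1 was 2.96-fold above it. Col1a2 and Col4a2 were within 2-fold of it, at 1.49-fold and 1.34-fold. The lower members were Col11a2, Col20a1 and Col25a1, all at 22 counts or fewer in con. Several fibrillar and type VI chains thus stood above both con samples in liver away from the metastasis, though in 1 library only. The macrophage and monocyte markers summed to 387 FPKM in L-con against 242.5 and 162.5 in con, and the stellate cell and fibroblast markers to 99.04 against 92.3 and 69.1. Of the latter, Lum was at 10.5 against 3.07 and 3.95. Other genes of that list were closer to the higher con sample: Pdgfrb at 3.675 against 3.644 and 2.346, Acta2 at 4.172 against 4.062 and 1.792, Dcn at 46.83 against 41.78 and 32.67 and Pdgfra at 1.819 against 1.389 and 0.8175. Their part in the L-con collagen values was not tested.

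From Lt to the mean of Mt3, Mt2 and Mt1, 0 of 37 members were called by edgeR, beside 0% of all genes higher and 0% lower. DESeq2 also called 0 members, beside 0.768% of all genes higher and 0.628% lower. At an unadjusted p under 0.05, 10 members and 19.1% of all genes passed. The median log2 fold change of the members was 0.40 beside -0.02 over all genes. It was 0.82 without Lt replicate 2 and 0.24 without Mt1 replicate 2, beside 0.01 and -0.02. Among the largest differences that did not pass, Col1a1 had a log2 fold change of 1.13 ± 0.50 (adjusted p = 0.261, edgeR), Col12a1 1.13 ± 0.55 and Col6a1 1.00 ± 0.37, and Col13a1 had -1.09 ± 0.46. The Lt and Mt samples overlapped for each of these genes except Col13a1, which was lower in all 6 Mt samples than in both Lt samples. When Mt2 replicate 1 was left out, the log2 fold change of Col13a1 was -1.48. The fit without a count filter called 4 members higher and 1 lower, beside 1.15% and 1.87% of all genes.

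From Mt to Ht, 9 of 37 members were called: 4 rose and 5 fell. Over all genes, 1.5% were called higher and 13.4% lower. The median over the members was 0.80 beside 0.00 over all genes. The members that rose were Col4a5 (1.46 ± 0.31, adjusted p = 0.0146), Col6a1 (1.18 ± 0.33, adjusted p = 0.0354), Col6a2 (1.16 ± 0.32, adjusted p = 0.0333) and Col7a1 (1.16 ± 0.35, adjusted p = 0.0430), all by edgeR. Of the 13 stellate cell and fibroblast markers, 2 were called higher at the same step, Pdgfra (1.07 ± 0.28) and Fap (1.32 ± 0.39). Another 3 of the 13 were called lower, and the list's median was 0.39. Their part in the collagen values was not tested. In Col7a1 the Ht samples were not both above all Mt samples, since Mt2 replicate 2 measured 2.64 FPKM and Ht 3.23 and 2.52. The split depended on the processing. With total-count scaling 14 rose and 3 fell, beside 15.1% of all genes higher and 10.3% lower, and the all-gene median was 0.55 in place of 0.00. Without a count filter 10 rose and 5 fell, beside 2.19% and 8.44%. With Mt as a single group 0 rose and 3 fell, beside 0.175% and 11.1%.
Of the 37 members, 5 fell from Mt to Ht, close to the 13.4% of all genes called lower. Of these 5 members, 3 were transmembrane collagens (Col25a1, Col13a1 and Col23a1). At this step 9 of 9 hepatocyte markers (median -4.39) and 4 of 10 endothelial markers (median -0.61) were also called lower (with total-count scaling 2 endothelial markers, median -0.05), and their part in the fall of these members was not tested. Col25a1 fell by 4.06 ± 1.02, Col13a1 by 3.11 ± 0.62, Col27a1 by 1.89 ± 0.39, Col23a1 by 1.66 ± 0.51 and Col6a6 by 1.46 ± 0.42 on the log2 scale. Col13a1, which sits at cell contacts, measured 1.25 and 2.34 FPKM in con and 1.95 in L-con, and in the metastases 1.46 and 1.45 (Lt), 1.13 and 0.924 (Mt3), 0.891 and 0.239 (Mt2), 0.830 and 0.336 (Mt1) and 0.0723 and 0.0875 (Ht). Col27a1, a minor fibrillar collagen, measured 0.619 and 1.74 FPKM in con and 0.975 in L-con, and in the metastases 1.05 and 0.948 (Lt), 0.889 and 0.840 (Mt3), 0.725 and 0.455 (Mt2), 0.382 and 0.495 (Mt1) and 0.176 and 0.149 (Ht). Col25a1 had 22 and 11 counts in con and 1 in L-con, and in the metastases 5 and 3 (Lt), 15 and 5 (Mt3), 6 and 4 (Mt2), 4 and 2 (Mt1) and 1 and 0 (Ht). For Col13a1 the low Mt values were the 2 samples with low hepatocyte markers. With either Ht sample left out, 0 genes of any kind were called at this step, so the loss of the member calls there is not particular to them. The log2 fold changes of Col13a1 were then -2.96 and -3.23, and those of Col27a1 -2.02 and -1.78. Under the other alternatives Col13a1 and Col27a1 kept their calls, Col25a1 lost its call without Mt1 replicate 1 and Col4a5 with Mt as a single group. Counting all alternatives, the calls of Col23a1 and Col6a6 were lost under 12 and 8 of 18, total-count scaling among them, that of Col7a1 under 7 of 18, and those of Col6a1 and Col6a2 under 7 and 6 of 19.
The chains of type I collagen were not called at this step. The log2 fold change from Mt to Ht was -0.03 ± 0.52 for Col1a2 and 0.79 ± 0.45 for Col1a1 (adjusted p = 0.973 and 0.211, edgeR). Mt1 replicate 2 held 57.4 FPKM of Col1a2 and 5.38 FPKM of Col12a1, above both Ht samples. Col11a1, a minor fibrillar chain, was likewise highest there, with 180 counts against 86 and 34 in Ht, 7 in Mt1 replicate 1, 3 and 10 in Mt2, 0 and 1 in Mt3, 6 and 0 in Lt and 0 in con and L-con.

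The widest contrast, con to Ht, had 24 of 37 members called higher and 6 lower, beside 25.8% and 24.1% of all genes. With total-count scaling 26 were higher and 3 lower, beside 51.3% and 13.1%. The members' median log2 fold change was 3.34 in the fit and 2.20 with genes at 0 in con set to their bound, beside 0.09 over all genes. This contrast shares con with Lt and Ht with Mt, so its values are not independent of those above. Of the fibrillar chains, 9 of 10 rose, with Col3a1 at 6.71 ± 0.68, Col1a1 at 6.25 ± 0.72, Col5a1 at 6.01 ± 0.54, Col5a2 at 5.81 ± 0.66 and Col1a2 at 3.44 ± 0.71. Of the type VI chains 5 of 6 rose, with Col6a2 at 8.14 ± 0.57 (adjusted p = 9.02e-05, edgeR), Col6a1 at 7.49 ± 0.58 and Col6a3 at 5.31 ± 0.41, whereas Col6a6 was at 0.21 ± 0.54. Col4a1 and Col4a2 rose by 3.38 ± 0.40 and 3.34 ± 0.38, and Col4a5 by 5.81 ± 0.52. Col12a1, which binds to the surface of type I fibrils, rose by 4.58 ± 0.77, Col8a1 by 5.68 ± 0.52 and Col15a1 by 2.09 ± 0.57. The Col15a1 call was lost without con replicate 1 (adjusted p = 0.0690, edgeR).
Of the members at 0 counts in con, Col28a1 was at least 9.45-fold, Col11a1 at least 5.49-fold, Col9a3 at least 4.45-fold and Col6a4 at least 1.89-fold higher in Ht. The Col11a1 call was lost when any con or Ht sample was left out. Col7a1 had 5 counts in con and 2404 in Ht, a ratio of 138 (95% exact interval 59.1 to 426).

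Of the 6 members that fell from con to Ht, Col18a1 was by far the most abundant. It measured 200.5 and 224 FPKM in con and 181 in L-con, and in the metastases 137 and 124 (Lt), 162 and 112 (Mt3), 136 and 64.5 (Mt2), 112 and 59.6 (Mt1) and 49.5 and 49.2 (Ht). The groups con and Ht did not overlap, and the log2 fold change was -2.12 ± 0.44 (adjusted p = 0.00238, edgeR). Col14a1, a FACIT collagen of mature connective tissue, measured 17.1 and 11.1 FPKM in con and 13.8 in L-con, and in the metastases 14.2 and 13.8 (Lt), 12.7 and 11.5 (Mt3), 10.3 and 10.3 (Mt2), 10.2 and 8.42 (Mt1) and 5.63 and 5.52 (Ht). It fell by 1.36 ± 0.21 on the log2 scale (adjusted p = 0.000563, edgeR). Both calls depended on the scaling: with total-count scaling, under which the all-gene median was 1.28 in place of 0.09, the log2 fold changes were -0.94 and -0.17 and neither passed. Col25a1 (-6.31 ± 1.06), Col13a1 (-4.502 ± 0.70) and Col27a1 (-2.86 ± 0.45) fell under that scaling too, while the call of Col4a3 was lost under it and without any single con or Ht sample. Over the same contrast the hepatocyte markers summed to 94950 and 84060 FPKM in con but 1495 and 2150 in Ht, and 9 of 9 were called lower. Their part in the fall of Col18a1 and Col13a1 was not tested. Col18a1 overlaps the coding gene Slc19a1, which measured 5.50 and 4.495 FPKM in con and 4.90 and 5.58 in Ht.

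**Figure D3:**
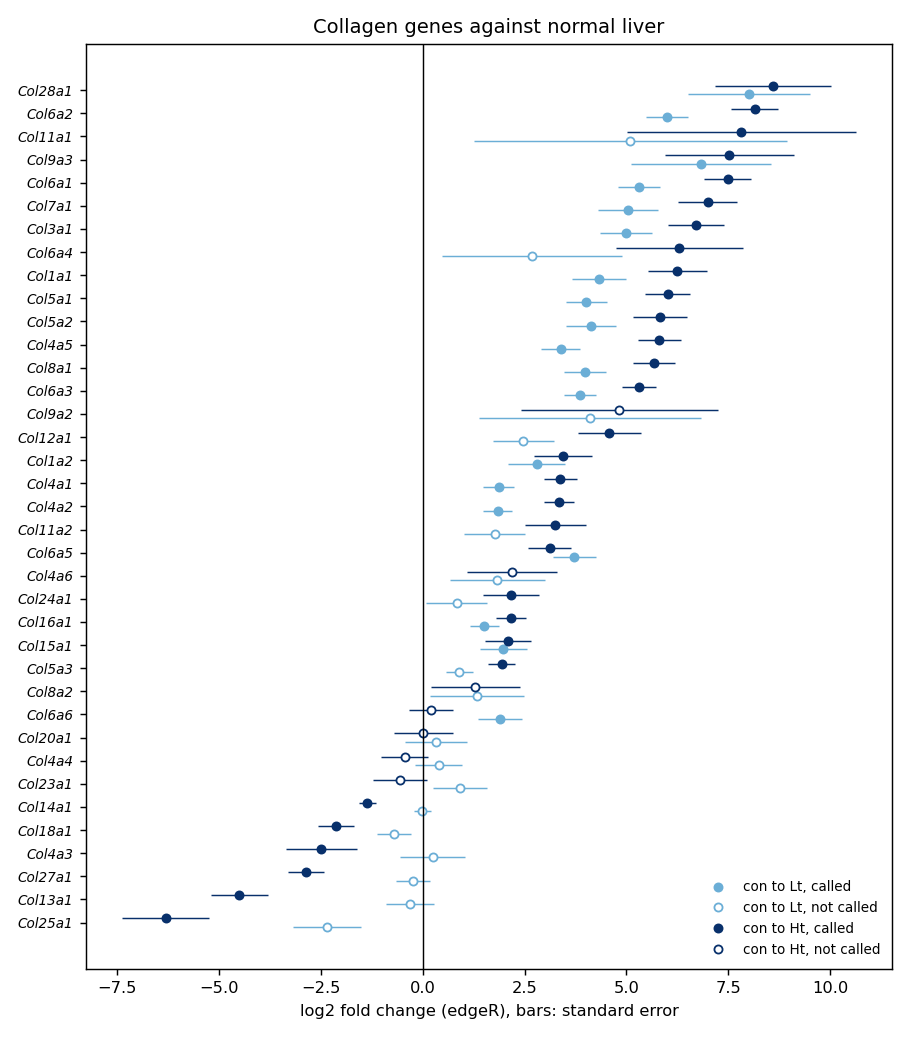
Log2 fold change (horizontal axis, edgeR, bars are standard errors) of the 37 tested collagen genes from con to Lt (light) and con to Ht (dark), with filled points for called genes. Col6a2 is at 6.00 and 8.14, Col18a1 reaches -2.12 in Ht, and wide bars mark genes with 0 counts in con, whose fitted values are no bounds.

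Marker lists of other cell types moved over the same samples. The stellate cell and fibroblast list (13 genes) summed to 92.3 and 69.1 FPKM in con and 209 and 200 in Ht, with 7 genes called higher and 3 lower (9 and 1 with total-count scaling). Its members Pdgfra, a receptor for platelet-derived growth factor, and Acta2, smooth muscle actin, rose by 4.24 ± 0.41 and 3.52 ± 0.68, whereas the quiescent stellate cell genes Lrat and Reln had log2 fold changes of -1.49 ± 0.45 and -3.31 ± 0.37, both called lower. The Lrat call was lost with total-count scaling (-0.30). The endothelial list (10 genes) went from 142 and 101 to 40.97 and 42.4 FPKM with 5 called lower (4 lower and 2 higher with total-count scaling), and the macrophage and monocyte list (9 genes) from 242.5 and 162.5 to 687 and 678 with 7 called higher and 1, the Kupffer cell marker Clec4f, lower (-2.34 ± 0.62). Cdx2 and Krt20, markers of intestinal epithelium, were at or under 3 counts in all con and Ht samples, so the tumor cells were not followed by them. The part of each cell type in the collagen values was not tested.

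The machinery that makes and binds collagen was described with 4 lists in the same contrast, con to Ht, where 25.8% of all genes were called higher and 24.1% lower with a median of 0.09. Of 18 genes for folding and hydroxylation, 11 rose and 2 fell (median 1.53). P4ha3, a subunit of prolyl 4-hydroxylase, had 2 counts in con and 1285 in Ht, a ratio of 185 (95% exact interval 51.0 to 1530), and Fkbp10, a collagen chaperone, and Plod2, a lysyl hydroxylase, rose by 5.92 ± 0.49 and 5.62 ± 0.58. Mia3 (TANGO1), which loads procollagen for export, fell by 2.16 ± 0.32, and P4hb, the disulfide isomerase subunit of prolyl 4-hydroxylase, fell by 1.40 ± 0.42, but with total-count scaling neither was called (-0.97 and -0.21).
Of 11 tested genes of procollagen processing and crosslinking, 7 rose and 0 fell (median 1.39), with Pcolce, an enhancer of procollagen cleavage, at 5.13 ± 0.51 and the crosslinking enzymes Loxl3 and Lox at 4.77 ± 0.42 and 4.36 ± 0.72. Among 8 collagen-binding proteoglycans 5 rose and 1 fell (median 3.31). Aspn (asporin) rose by 7.77 ± 0.69 and Ogn (osteoglycin) by 5.92 ± 0.67, Kera (keratocan) had 0 counts in con and was at least 5.35-fold higher, and Prelp fell by 1.009 ± 0.27, a direction that turned with total-count scaling (0.18, not called). Of 10 tested collagen receptors and uptake genes 6 rose and 0 fell (median 2.07), led by the uptake receptor Mrc2 (6.39 ± 0.51), the discoidin receptor Ddr2 (4.22 ± 0.40) and the inhibitory leukocyte receptor Lair1 (3.37 ± 0.40).

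Chains that assemble together did not all keep their ratio. The ratio of Col1a1 to Col1a2 FPKM was 1.25 and 0.816 in con and 2.49 in L-con, and in the metastases 2.78 and 3.34 (Lt), 5.39 and 3.46 (Mt3), 5.86 and 4.17 (Mt2), 6.07 and 3.46 (Mt1) and 7.14 and 8.15 (Ht). It was thus lowest in con and highest in Ht among the tissue samples, without overlap between con, Lt and Ht. In the 3 Mt groups replicate 1 held the higher ratio, although replicate 2 of Mt2 and Mt1 held more of both chains. In contrast, the ratio of Col4a1 to Col4a2 stayed between 1.25 and 1.76 in tissue, and con covered that whole range. The ratio of Col6a1 to Col6a2 was 3.48 and 3.06 in con and lay between 1.86 and 2.14 in every other tissue sample, and Col6a3 relative to Col6a1 was 0.473 and 0.322 in con against 0.0908 and 0.0886 in Ht. The ratio of Col3a1 to Col1a1 ranged from 2.25 to 4.52 in tissue, with con at 2.25 and 3.22 and Ht at 3.56 and 3.39. These ratios are descriptions over 2 samples a group and do not depend on the scaling. Their absolute size depends on the gene lengths used, whereas their change between samples does not.

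**Figure D4:**
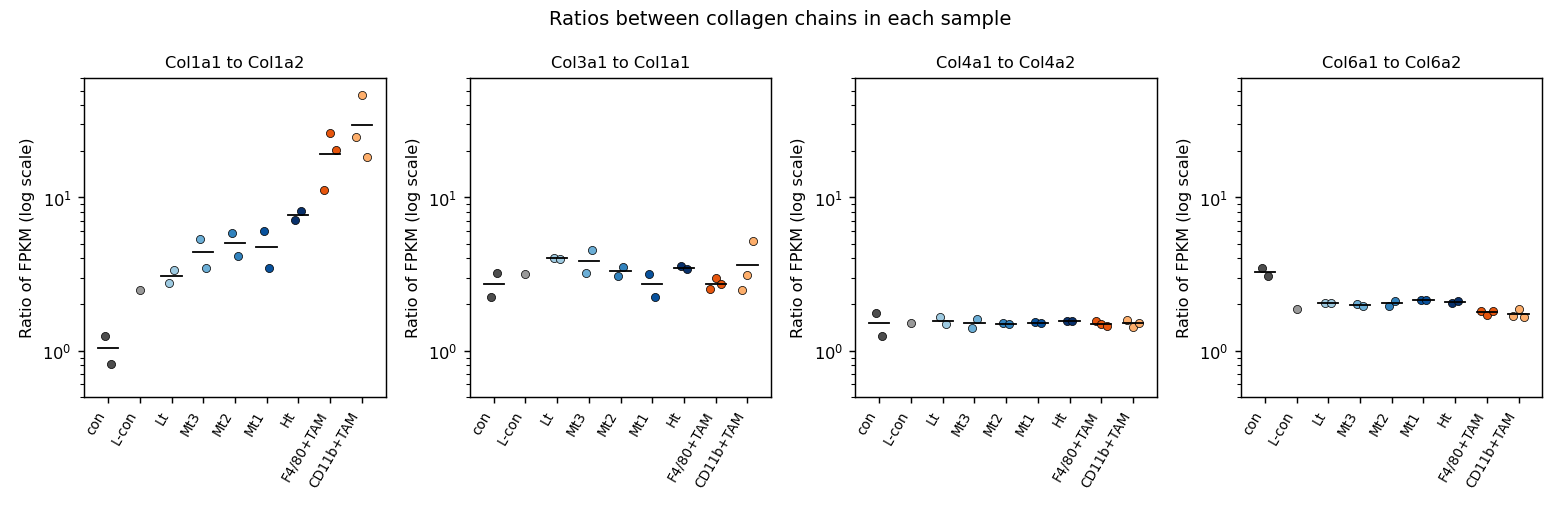
Ratio of FPKM between pairs of collagen chains (log scale, vertical axis) in each sample by group (horizontal axis), one point per sample and a line at the group mean. Col1a1 to Col1a2 is 1.25 and 0.816 in con, 7.14 and 8.15 in Ht, and reaches 46.5 in CD11b+TAM, while Col4a1 to Col4a2 stays between 1.25 and 1.76.

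The sorted cells served to ask which collagens were carried by the macrophage fractions of Mt2. Summed collagen was 123, 149 and 187 FPKM in F4/80+TAM and 123, 93.7 and 49.3 in CD11b+TAM, against 982 and 1477 in Mt2 tissue, which was 8.04-fold and 13.9-fold above the sorted means. Of 37 tested members, 27 fell and 1 rose in F4/80+TAM, beside 25.2% of all genes called lower and 17.2% higher, and 28 fell and 1 rose in CD11b+TAM, beside 26.3% and 17.6%. The median over the members was -3.01 and -3.84 (-2.78 and -3.57 with genes at 0 set to their bound), beside -0.12 and -0.08 over all genes. Both comparisons use the same Mt2 samples. The macrophage and monocyte markers summed to 4723 to 5357 FPKM in F4/80+TAM and 3948 to 7287 in CD11b+TAM against 506 and 636 in Mt2 tissue, with 8 of 9 called higher in each. The ninth, Clec4f, was not called in F4/80+TAM (1.64 ± 0.70) and fell in CD11b+TAM (-2.89 ± 0.67).

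In F4/80+TAM, Col3a1 measured 25.3, 30.8 and 40.0 FPKM, Col6a1 24.5, 33.6 and 43.4, and Col6a2 13.4, 19.6 and 23.8. In CD11b+TAM the same genes measured 23.2, 15.9 and 13.4, then 26.2, 17.1 and 8.24, then 15.5, 9.14 and 4.98 FPKM. All sorted samples were below both Mt2 samples for these genes, with log2 fold changes of -3.30 ± 0.43, -2.92 ± 0.45 and -2.72 ± 0.44 in F4/80+TAM and -4.17 ± 0.44, -3.90 ± 0.46 and -3.66 ± 0.45 in CD11b+TAM. Col1a1 measured 9.95, 10.4 and 14.8 FPKM in F4/80+TAM and 9.36, 5.07 and 2.57 in CD11b+TAM. Col1a2 measured 0.891, 0.396 and 0.723 FPKM in F4/80+TAM and 0.374, 0.109 and 0.140 in CD11b+TAM. Col1a2 was thus lower relative to tissue (-4.90 ± 0.64 and -6.59 ± 0.70) than Col1a1 (-3.01 ± 0.54 and -4.06 ± 0.56), and the ratio of Col1a1 to Col1a2 was 11.2 to 26.3 in F4/80+TAM and 18.4 to 46.5 in CD11b+TAM, above every tissue sample.
The difference between the chains was not tested as such. Col4a1 to Col4a2 and Col6a1 to Col6a2 kept ratios of 1.44 to 1.58 and 1.65 to 1.87 in the sorted cells, close to or slightly under those of Mt2 tissue (1.51 and 1.49, and 1.96 and 2.11). Col4a1 measured 8.002, 10.7 and 10.4 FPKM in F4/80+TAM and 7.38, 5.38 and 2.47 in CD11b+TAM. Col4a2 measured 5.16, 7.11 and 7.13 and then 4.67, 3.75 and 1.63 FPKM. Both were below Mt2 tissue in every sorted sample.
The other matrix chains were low in the sorted cells as well. Col5a1 measured 7.16, 8.99 and 11.5 FPKM in F4/80+TAM and 6.52, 4.13 and 2.24 in CD11b+TAM, and Col5a2 1.54, 1.79 and 2.15 and then 1.35, 0.746 and 0.690 FPKM. Col6a3 measured 3.30, 4.07 and 5.15 and then 3.14, 2.40 and 0.611 FPKM, and Col18a1 3.53, 4.59 and 5.19 and then 3.55, 2.26 and 1.41 FPKM. Col8a1 measured 0.252, 0.395 and 0.504 FPKM in F4/80+TAM and 0.273, 0.157 and 0.111 in CD11b+TAM, and Col12a1 0.0564, 0.0871 and 0.123 and then 0.0748, 0.0389 and 0.0114 FPKM. Each of these genes fell in both populations, with Col18a1 at -4.498 ± 0.42 and -5.38 ± 0.44 and Col12a1 at -4.49 ± 0.62 and -5.53 ± 0.67.

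Some members were nearly missing from the sorted cells. Col6a5 had 78 and 138 counts in Mt2 tissue and 3, 2 and 2 in F4/80+TAM and 0, 1 and 0 in CD11b+TAM. Col6a6 had 31 and 31 counts in Mt2 tissue, 1, 0 and 1 in F4/80+TAM and 0 in CD11b+TAM, which is at least 11.3-fold lower. Col25a1 was at 0 in all 6 sorted samples, at least 1.88-fold lower in F4/80+TAM, and Col11a1 was at 0 in F4/80+TAM, at least 2.07-fold lower. The fitted Col11a1 call was lost under 6 of 10 alternatives. Col28a1 had 16 and 38 counts in Mt2 tissue and 2, 0 and 3 in F4/80+TAM and 1, 0 and 0 in CD11b+TAM, and fell in both populations.

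Of the 37 members, 12 were not called lower in 1 or both populations. Col14a1 measured 13.4, 7.69 and 13.5 FPKM in F4/80+TAM and 14.7, 21.7 and 5.16 in CD11b+TAM, against 10.3 and 10.3 in Mt2 tissue. The values overlapped and neither difference was called (0.16 ± 0.41 and 0.43 ± 0.42, adjusted p = 0.756 and 0.393, edgeR). Its share of summed collagen was 10.9%, 5.17% and 7.23% in F4/80+TAM and 11.98%, 23.2% and 10.5% in CD11b+TAM, against 1.05% and 0.700% in Mt2 tissue. The fibroblast genes Dcn and Lum fell, with log2 fold changes of -4.22 ± 0.23 and -4.83 ± 0.32 in F4/80+TAM and -5.07 ± 0.24 and -5.27 ± 0.33 in CD11b+TAM. Of the 13 stellate cell and fibroblast markers, 12 and 13 fell, and their sum was 10.8 to 15.8 FPKM in F4/80+TAM and 9.13 to 12.1 in CD11b+TAM against 140 and 213 in Mt2 tissue. The endothelial markers summed to 27.7 to 61.1 FPKM in F4/80+TAM and 13.7 to 19.7 in CD11b+TAM, against 92.9 and 50.7 in Mt2 tissue. Which cells carried Col14a1 in the sorted samples was not tested.
Col15a1 measured 1.37, 1.87 and 1.55 FPKM in F4/80+TAM and 1.19, 1.30 and 1.02 in CD11b+TAM. It lay below both Mt2 samples, was not called in F4/80+TAM (-0.74 ± 0.41, adjusted p = 0.135, edgeR), and fell in CD11b+TAM (-1.19 ± 0.41, adjusted p = 0.0225, edgeR). The second call was lost without Mt2 replicate 2 or without CD11b+TAM replicate 1 or 3. Col11a2 measured 1.04, 1.02 and 1.25 FPKM in F4/80+TAM and 1.07, 0.979 and 1.27 in CD11b+TAM against 0.458 and 1.43 in Mt2 tissue, with log2 fold changes of 0.21 ± 0.47 and 0.22 ± 0.47 that were not called. Col9a3 had 33 to 38 counts in F4/80+TAM and 33 to 65 in CD11b+TAM against 14 and 26 in Mt2 tissue. It was not called (0.77 ± 0.59 and 1.19 ± 0.59). It overlaps the coding gene Tcfl5, which was at 0 in all sorted samples.
Col20a1, a FACIT collagen, was the member that rose in both populations, by 1.64 ± 0.60 and 1.56 ± 0.60 (adjusted p = 0.0322 and 0.0384, edgeR). It had 47, 28 and 28 counts in F4/80+TAM and 40, 33 and 27 in CD11b+TAM against 3 and 20 in Mt2 tissue. Both calls were lost with total-count scaling, in the fit of only the groups compared and without Mt2 replicate 1. The call in F4/80+TAM was also lost without F4/80+TAM replicate 1, and that in CD11b+TAM with the replicate number as a block and without CD11b+TAM replicate 1 or 3.
Col13a1 measured 0.307, 0.459 and 0.150 FPKM in F4/80+TAM, overlapping the 0.891 and 0.239 of Mt2 tissue (-0.86 ± 0.55, not called), and 0.0722, 0.0643 and 0.0504 in CD11b+TAM, where it fell (-3.11 ± 0.62). The other members not called were Col4a3, Col6a4 and Col9a2 in both populations, Col8a2 in F4/80+TAM, and Col11a1 and Col23a1 in CD11b+TAM.

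**Figure D5:**
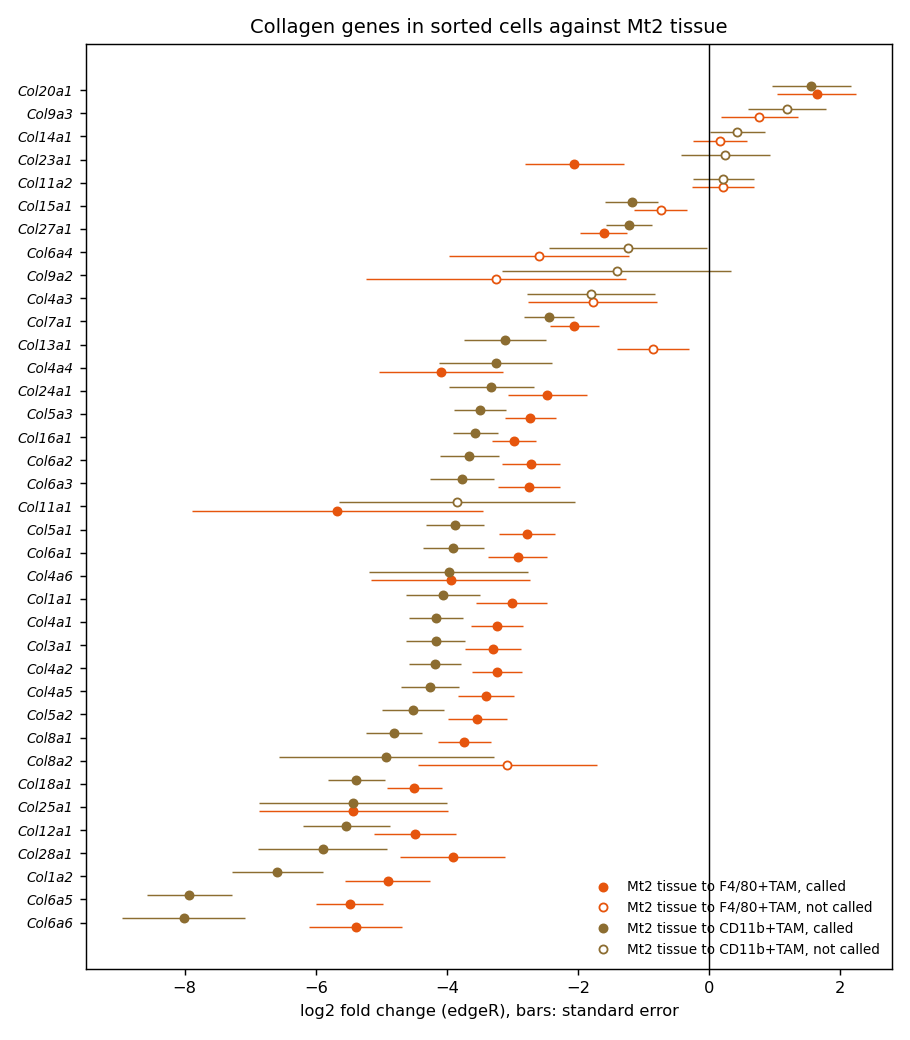
Log2 fold change (horizontal axis, edgeR, bars are standard errors) of the 37 tested collagen genes from Mt2 tissue to F4/80+TAM (orange) and to CD11b+TAM (brown), with filled points for called genes. Most genes lie between -2 and -6, Col20a1 is at 1.64 and 1.56, and Col14a1 is at 0.16 and 0.43, open in both; both sets share the Mt2 samples.

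Between the sorted populations, 0 of 24 tested members were called by edgeR, beside 0.00701% of all genes higher and 0.0701% lower in F4/80+TAM. DESeq2 called 1 member, as higher, beside 0.932% of all genes higher and 1.17% lower. At an unadjusted p under 0.05, 11 members and 10.5% of all genes passed. The median over the members was 0.86 beside 0.00 over all genes, and 20 of 24 were higher in F4/80+TAM. The members' median was 0.56 without CD11b+TAM replicate 3 and 1.22 without CD11b+TAM replicate 1. Col1a2 had a log2 fold change of 1.64 ± 0.51 (adjusted p = 0.358), Col3a1 0.82 ± 0.25 (adjusted p = 0.352) and Col13a1 2.21 ± 0.52 (adjusted p = 0.184, edgeR), while Col14a1 had -0.31 ± 0.47. Col3a1 and Col1a2 were higher in all 3 F4/80+TAM samples than in all 3 CD11b+TAM samples, and Col6a1 overlapped. Marker lists of other cells were split: 9 of 9 tested endothelial markers (median 1.53) and 8 of 8 tested hepatocyte markers (median 0.94) were higher in F4/80+TAM, 6 of 9 tested stellate cell and fibroblast markers (median 0.38) and 6 of 9 macrophage and monocyte markers (median 0.21) were higher, and 3 of 3 tested cholangiocyte and intestinal epithelial markers (median -2.14) were lower, with 0 called by edgeR in any of these lists. The endothelial sum was 27.7 to 61.1 FPKM in F4/80+TAM and 13.7 to 19.7 in CD11b+TAM, and the hepatocyte sum 72.7 to 136 and 22.9 to 83.6. Their part in the collagen difference was not tested.

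Of the 7 members that did not pass the filter in tissue, Col17a1 had at most 15 counts in a sample, Col22a1, Col10a1 and Col26a1 at most 5, Col2a1 at most 3, Col9a1 1, and Col19a1 had 0 in all 19 samples. Expression of Col19a1 and of Col2a1 and Col9a1, collagens of cartilage, was not detectable above the floor of 3 counts in any sample. The tested members not named in a tissue comparison above, Col5a3, Col16a1, Col24a1, Col4a4, Col4a6, Col8a2 and Col9a2, had group means of at most 17.4 FPKM in tissue. Of these, Col5a3, Col16a1 and Col24a1 rose from con to Ht (1.93 ± 0.34, 2.17 ± 0.36 and 2.18 ± 0.69). The Col24a1 call was lost without con replicate 1 or Ht replicate 1 (highest adjusted p = 0.104, edgeR). Col16a1 also rose from con to Lt (1.51 ± 0.36), a call lost without any single con or Lt sample. Col4a4, Col4a6, Col8a2 and Col9a2 were not called from con to Ht. Col4a6 was called higher there with total-count scaling (3.36), without a filter (2.31) and in the fit of only the groups compared (2.26). Col9a2 was called higher with total-count scaling. It had 0 counts in con and 9 and 5 in Ht, so against the floor of 3 counts no fold was supported. Annotated genes overlapped 28 of the 44 members, 5 of them with a coding gene, and the labels do not give a strand for the counting, so reads of a gene and its antisense partner cannot be told apart.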

How the data were processed

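The authors deposited raw counts of reads per gene, 1 table for the tissue libraries and 1 for the sorted cells, without normalization or pooling. The kit was NEBNext Ultra RNA, and the submitters' processing notes name CASAVA, HISAT2 2.0.5, featureCounts 1.5.0-p3 and GRCm38 (mm10). No annotation release is given in the sources used here. Gene positions were those of the tables. Tables were joined on gene identifiers, and 0 columns were left unmapped.

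Counts were filtered by filterByExpr, scaled by TMM and tested in edgeR 4.0.16 (R 4.3.3) by the quasi-likelihood F test across all genes with Benjamini-Hochberg adjustment. A tissue fit held 13 samples in 7 groups (17187 genes, 37 members passed), a joint fit 19 samples in 9 groups (18407 genes, 37 members) and a fit of the sorted cells 6 samples (14263 genes, 24 members). Mt was the mean of Mt3, Mt2 and Mt1. Standard errors were derived from the F statistic. FPKM used the gene lengths in the tables and the joint fit's effective library sizes. On the total counts of the single libraries, the floor of 3 counts corresponds to between 0.146 and 0.187 CPM. The bounds given as at least a fold used the effective library sizes instead, with Ht_1 and Ht_3 summed. The scripts were tested on simulated data.

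The collagen genes and all lists were chosen with earlier results of these data known. Values in every sample are given for a set list of 15 collagen genes. In each comparison, values or counts in the samples compared are given for the 3 other called members with the largest change in each direction. In the 4 lists of processing and binding genes, the 3 called genes with the largest change in each direction are named. Alternatives were DESeq2 1.42.0, total-count scaling, other count filters, no fold threshold, other treatments of Ht and Mt, fits of only the groups compared, a replicate block and leaving out each sample. The block with exchanged numbers was added after seeing the data. Promoter sequences are from RefSeq (GRCm38.p6). Figures were drawn in matplotlib 3.10.9.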

Additional observations from a re-analysis of the deposited data

How the results depend on the processing

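Of 30 members called from con to Ht, the counts with DESeq2, total-count scaling, no filter, no fold threshold, only the groups compared and both other treatments of Ht lay between 29 and 31. Over all genes, 16.6% to 51.3% were called higher and 13.1% to 31.6% lower under these settings. The members called from Mt to Ht numbered 17 with total-count scaling, beside 15.1% of all genes higher and 10.3% lower. They numbered 15 without a filter, beside 2.19% and 8.44%, and 3 with Mt as a single group, beside 0.175% and 11.1%. The main fit gave 9, beside 1.5% and 13.4%. A minimum of 10 counts in every library left fewer members tested, 19 in tissue and 17 in the joint fit. It gave 12 from con to Lt against 19, beside 9.42% of all genes higher and 0.183% lower. From con to Ht it gave 19, beside 23.7% and 25.4%. From Mt2 to F4/80+TAM it gave 15 against 28, beside 16.3% and 18.4%. To CD11b+TAM it gave 16 against 29, beside 16.8% and 19.2%. Without a filter 5 were called from Lt to Mt against 0, beside 1.15% of all genes higher and 1.87% lower. DESeq2 called 1 between the sorted populations against 0, beside 0.932% and 1.17%. The cause of these changes other than the number tested was not tested. Total-count scaling put summed collagen at 182.9 FPKM in con, 569.6 in Mt3 and 2754 in Ht, against 272.2, 685.2 and 1822.

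Leaving out each sample in turn gave 11 to 17 calls from con to Lt (11 without con replicate 2 and 11 without Lt replicate 2), 0 to 1 from Lt to Mt (1 without Mt2 replicate 1) and 0 to 13 from Mt to Ht (0 without either Ht sample, when 0 of all genes were called, 3 without Mt1 replicate 1, 4 without Mt3 replicate 1, 5 without Mt3 replicate 2), 26 to 28 from con to Ht, 25 to 28 to F4/80+TAM, 26 to 29 to CD11b+TAM and 0 between the sorted populations. Where 1 sample of a group remained, it was assumed to vary like the other groups. No called member changed sign under any alternative run.

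Replicate numbers are shared between groups, but nothing says that same-numbered samples belong together. The deviations of same-numbered samples correlated at -0.149 between con and Lt, 0.281 to 0.585 between Lt and the Mt groups and -0.363 to -0.230 between the Mt groups and Ht. With the replicate number as a block, 21 members were called from con to Lt (20 higher and Col25a1 lower, at -2.33), beside 13% of all genes higher and 0.628% lower. From Lt to Mt 0 were called, beside 0% and 0%. From Mt to Ht 12 were called, beside 2.55% and 13.9%, with Col5a1, Col12a1 and Col18a1 gained. From con to Ht 30 were called, beside 25.9% and 24.1%. Against Mt2, 26 were called in F4/80+TAM, beside 17.3% and 24%, and 27 in CD11b+TAM, beside 16.8% and 25.3%. Between the sorted populations 0 were called, beside 0.196% and 0.351%. Exchanging the numbers gave 18 from con to Lt, beside 13.9% of all genes higher and 0.611% lower, and 13 from Mt to Ht, beside 2.69% and 14.3%.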
